A study of Fragaria vesca with 9 samples.

Results

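The comparison described here is that of woodland strawberry (Fragaria vesca) fruits of the FvMATE51 mutant line Fvmate51-2 with fruits of wild type (WT), 3 poly(A) RNA libraries each, all taken 26 days after anthesis. Its members are the genes that reached at least 1 FPKM (fragments scaled to gene length and to the size of the library) in 3 or more of these 6 libraries, which holds for 15417 of the 34777 genes in the authors' table. Of the members, 11168 have a protein description and 12435 a description or a protein domain, and they were grouped by the families those descriptions name. A second mutant line of the same gene, Fvmate51-1, with 3 libraries, entered the fit for its share in the estimate of spread and is used below only where the lines differ. The labels give the tissue as fruit and the genotype as WT or mutant; the allele that each line carries, the strain, and whether the replicates of a group came from separate plants are not given in the sources used here. The p-values therefore rest on the scatter among these libraries alone, some of which could be technical. The design text writes the mutated gene also as FvmMATE1. No description in the table carries the name MATE51, so the level of the mutated gene is not given as such, and the MATE family members are given one by one below.

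MATE (multidrug and toxic compound extrusion) proteins are membrane carriers that move organic compounds out of the cytosol in exchange for protons or sodium ions, and the title of the series places FvMATE51 in the membrane of the vacuole. Plant members of the family are known to load flavonoids, alkaloids, citrate and hormones into the vacuole or out of the cell. A ripening strawberry fills its receptacle with sugars, organic acids, anthocyanins, furanones and terpenes while its cell walls loosen, and the achenes on its surface, the true fruits, hold the seeds. The libraries were made from whole-fruit RNA as far as the labels say, so a lower level can mean fewer cells of a type or less RNA per cell, and these cannot be told apart.

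Counted in genes of the table, the Fvmate51-2 libraries held between 38130965 and 39907761 fragments and the WT libraries between 39187325 and 51649115. The first principal component of the 6 libraries, 76.2% of the variance, separated the Fvmate51-2 libraries from the WT libraries, and the second, 12.4%, set WT replicate 3 at 22.5 apart from the other WT libraries, at -14.2 and -13.0. Counts and medians of several gene lists moved without it or without another library, and values without that library stand beside those described below. The fruit label was checked against transcripts typical of ripening strawberry receptacle. The polygalacturonase FvH4_6g41380, which cuts pectin, had 4646, 4766 and 4731 FPKM in Fvmate51-2 and 4775, 4638 and 4696 FPKM in WT (adjusted p = 0.979), and the groups overlapped. The 2-methylene-furan-3-one reductase FvH4_6g50700, the enzyme that forms the aroma compound furaneol, had 5294, 5399 and 5120 FPKM in Fvmate51-2, against 6260, 6483 and 7803 FPKM in WT (log2 difference -0.37 ± 0.11, adjusted p = 0.0295). Its call was lost without Fvmate51-2 replicate 1, 2 or 3 (adjusted p = 0.0877, 0.0740 and 0.0988) and without WT replicate 2 (adjusted p = 0.0560), as well as with the replicate number as a block (adjusted p = 0.0607) and with no filter on low values (adjusted p = 0.264).

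In total, 4779 of 15417 genes (31.0%) differed between Fvmate51-2 and WT fruits at an adjusted p under 0.05 in limma on log2(FPKM + 1), two-sided, with Benjamini-Hochberg adjustment over all genes tested. Of these, 2390 (15.5%) were higher and 2389 (15.5%) lower in Fvmate51-2, and the median log2 difference over all genes tested was 0.02. Most differences were small: 59.9% of the called genes differed by less than 1.5-fold on this scale, and 742 reached 2-fold, 383 (2.48%) of them higher and 359 (2.33%) lower. In 4734 of the called genes the 3 Fvmate51-2 values lay wholly above or below the 3 WT values, and this holds for every gene given as called in the comparison with WT below. Over all 15417 genes tested, called or not, all 3 lay above in 4038 (26.2%) and below in 3713 (24.1%). A lack of overlap is therefore common in these data and adds little to a call. The genes called higher took 22.7% to 22.9% of the summed FPKM in Fvmate51-2 libraries, against 13.6% to 14.8% in WT libraries, and the genes called lower took 16.4% to 16.9% in Fvmate51-2 libraries, against 23.9% to 25.7% in WT libraries. These 15.5% shares are the background against which the gene groups below are read. The background itself falls with a library left out. Without Fvmate51-2 replicate 1, 2 or 3, 1726, 1739 and 1637 of all genes tested were higher and 1816, 1869 and 1700 lower. Without 1 WT library, 2177 to 2269 were higher and 2037 to 2211 lower. A lower count in a list without a library is to be read beside these. A fold change in the text is the ratio of the group means in FPKM, and a log2 difference is Fvmate51-2 minus WT on the log2(FPKM + 1) scale unless the lines are compared, which understates the change of genes near 0. The value after ± beside a log2 difference is its standard error.

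Among the largest rises were genes of cell walls, iron storage and specialised metabolism. Beta-galactosidase 15 (FvH4_1g09190), one of the enzymes that trim galactose from wall polymers, had 43.4, 43 and 43.4 FPKM in Fvmate51-2, against 1.37, 1.34 and 1.26 FPKM in WT, a 32.7-fold difference (log2 difference 4.25 ± 0.07, adjusted p = 1.52e-10). The plastid iron store ferritin (FvH4_6g10770) had 204, 204 and 189 FPKM in Fvmate51-2, against 12.6, 13.6 and 12.1 FPKM in WT (15.6-fold; log2 difference 3.86 ± 0.11, adjusted p = 2.89e-09). Laccase-9 (FvH4_2g12590), of the oxidases that polymerise lignin units, had 241, 249.6 and 255 FPKM in Fvmate51-2 and 21.3, 26.5 and 21.3 FPKM in WT (10.8-fold; log2 difference 3.38 ± 0.10, adjusted p = 3.76e-09). All 3 genes were nearly constant within each group, and the groups stood far apart. A phloretin 4'-O-glucosyltransferase (FvH4_4g13000), which in apple attaches glucose to a dihydrochalcone, had 46.4, 48.4 and 49.6 FPKM in Fvmate51-2, against 2.38, 2.63 and 3.36 FPKM in WT (log2 difference 3.70 ± 0.12, adjusted p = 9.26e-09). A probable mannitol dehydrogenase (FvH4_7g07240) had 88.8, 91.4 and 86.5 FPKM in Fvmate51-2, against 6.05, 6.51 and 6.18 FPKM in WT (log2 difference 3.63 ± 0.06, adjusted p = 1.52e-10). Cytochrome P450 81Q32 (FvH4_1g23710) had 61.3, 63.8 and 62.1 FPKM in Fvmate51-2 and 4.61, 4.91 and 4.55 FPKM in WT (log2 difference 3.48 ± 0.09, adjusted p = 2.45e-09). Each of these was more than 10-fold higher in the mutant by its group means. The stearoyl-acyl-carrier-protein desaturase 6 (FvH4_2g14690), which puts the first double bond into an 18-carbon fatty acid, had 28, 29.6 and 28.6 FPKM in Fvmate51-2, against 2.9, 3.24 and 3.38 FPKM in WT (9.06-fold; log2 difference 2.83 ± 0.08, adjusted p = 3.13e-09). Jasmonate-induced oxygenase 2 (FvH4_2g07081), whose Arabidopsis relatives inactivate jasmonate by hydroxylation, had 314, 322 and 289.7 FPKM in Fvmate51-2, against 45.7, 42.6 and 41.3 FPKM in WT (7.15-fold; log2 difference 2.81 ± 0.08, adjusted p = 3.76e-09).

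The largest falls took in transcripts that were abundant in WT and almost gone in the mutant. The homeobox-leucine zipper factor ATHB-6 (FvH4_1g20230), in Arabidopsis a negative regulator of abscisic acid responses, had 0.895, 1.03 and 0.803 FPKM in Fvmate51-2, against 149, 148 and 127 FPKM in WT (155-fold lower; log2 difference -6.22 ± 0.11, adjusted p = 1.52e-10). A delta(12)-acyl-lipid desaturase (FvH4_3g44270), which turns oleate into linoleate in membrane lipids, had 13.7, 13.9 and 12.8 FPKM in Fvmate51-2, against 362, 381 and 293 FPKM in WT (25.6-fold lower; log2 difference -4.57 ± 0.11, adjusted p = 1.14e-09). The ATP-citrate synthase alpha chain protein 2 (FvH4_3g10370), a subunit of the enzyme that makes cytosolic acetyl-CoA, had 0, 0 and 0.0503 FPKM in Fvmate51-2 and 26.1, 24.3 and 25.2 FPKM in WT (log2 difference -4.69 ± 0.09, adjusted p = 1.6e-10). No library of one group came near the other in any of the 3. The xyloglucan endotransglucosylase/hydrolase FvH4_3g00850, an enzyme that cuts and rejoins wall xyloglucan, had 1.32, 1.62 and 1.35 FPKM in Fvmate51-2, against 36.7, 40.4 and 40.6 FPKM in WT (27.4-fold lower; log2 difference -4.05 ± 0.10, adjusted p = 1.68e-09). The stress factor DREB1D (FvH4_7g28950) had 0, 0.584 and 0.108 FPKM in Fvmate51-2, against 17.2, 18.3 and 23 FPKM in WT (log2 difference -4.08 ± 0.19, adjusted p = 1.16e-07). The calcium sensor CML38 (FvH4_5g26790) had 4.43, 4.17 and 5.24 FPKM in Fvmate51-2 and 43.8, 45.5 and 60.6 FPKM in WT (10.8-fold lower; log2 difference -3.17 ± 0.15, adjusted p = 1.28e-07). In each of these genes every mutant library lay far below every WT library. ORG2 (FvH4_2g11650), a bHLH factor that in Arabidopsis rises under iron shortage, had 0.0825, 0.121 and 0.278 FPKM in Fvmate51-2, against 9.49, 8.32 and 8.31 FPKM in WT (log2 difference -3.07 ± 0.11, adjusted p = 1.08e-08). PHOSPHATE-INDUCED 1 (FvH4_5g36910), a protein named after its induction by phosphate in tobacco cells, had 0.322, 0.627 and 0.62 FPKM in Fvmate51-2, against 10.1, 9.94 and 11.4 FPKM in WT (log2 difference -2.92 ± 0.13, adjusted p = 8.18e-08). The plot of the largest differences shows all 30 genes with each library.

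**Figure D1:**
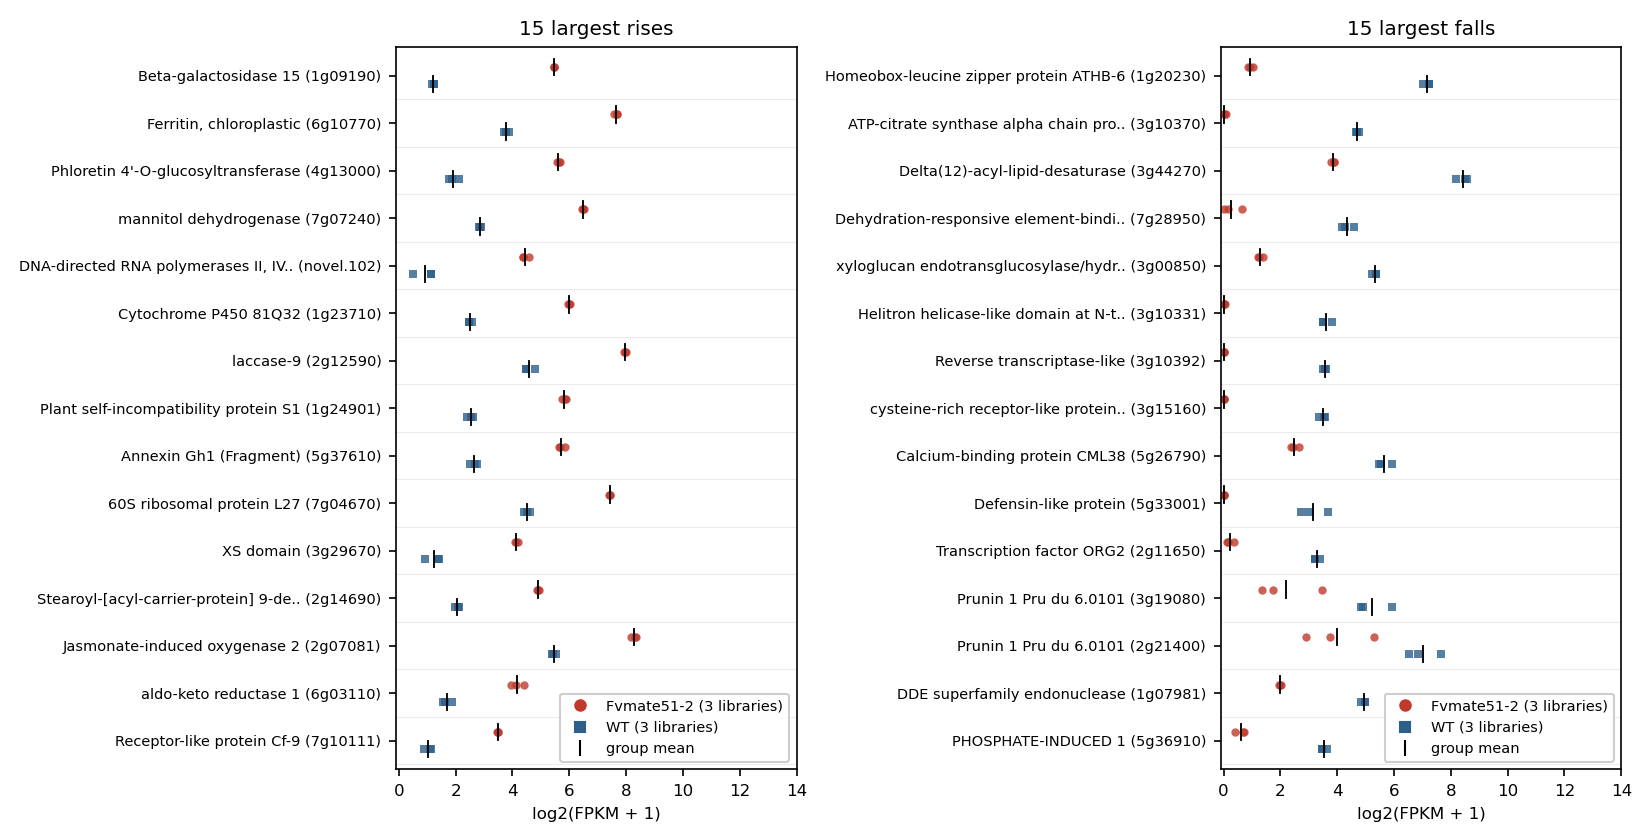
Each point is 1 library, on the log2(FPKM + 1) scale, for the 15 largest rises (left) and the 15 largest falls (right) among called genes with a description or domain whose groups do not overlap; circles are Fvmate51-2, squares WT, and black ticks group means. Beta-galactosidase 15 leads the rises with a log2 difference of 4.25 and ATHB-6 the falls with -6.22; the Prunin genes, of the seed, vary most within a group.

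In the comparison of Fvmate51-2 with WT, a small set of genes was listed at 0 on one side. In all 3 Fvmate51-2 libraries 23 genes were listed at 0 while all 3 WT libraries reached 1 FPKM, and 8 of the 23 have a description or domain. Many of the 23 were at 0 in Fvmate51-1 too, and none was above 0.357 FPKM in any library of that line. Their near absence was thus not particular to Fvmate51-2. The gene FvH4_4g29311, which has neither, showed the reverse, with 23.4, 17.5 and 19.6 FPKM in Fvmate51-2, against 0, 0 and 0 FPKM in WT. The putative cysteine-rich receptor-like kinase 35 (FvH4_3g15160, on the plus strand of chromosome 3 from 9418429 to 9420429 in the authors' table, whose genome build is not given in the sources used here) had 0, 0 and 0 FPKM in Fvmate51-2, against 9.31, 10.7 and 10.9 FPKM in WT, at least 157-fold lower in the mutant against a floor of 3 fragments per library. A defensin-like protein (FvH4_5g33001) had 0, 0 and 0 FPKM in Fvmate51-2, against 11.7, 5.68 and 7.09 FPKM in WT, at least 24.0-fold lower. The other described members at 0 were ERF026 (FvH4_7g28960), a uridine 5'-monophosphate synthase fragment (FvH4_3g03840) and the mitochondrial acyl carrier protein 2 (FvH4_3g15590), and all were under 10 FPKM in WT. Chromosome 3 held 11 of the 23, and it had the highest share of genes called at 2-fold or more, 6.43%, against 4.10% to 4.79% on the other 6 chromosomes. Between 6.0 and 6.1 Mb of that chromosome lie the ATP-citrate synthase gene above, the helitron-like gene FvH4_3g10331 with 0.0289, 0 and 0 FPKM in Fvmate51-2, against 10.3, 10.4 and 12.9 FPKM in WT, and the reverse-transcriptase-like gene FvH4_3g10392 with 0, 0 and 0 FPKM in Fvmate51-2, against 11, 11.2 and 10.2 FPKM in WT. The 3 transcripts were absent or nearly absent in the same 3 mutant libraries. In windows of 1 Mb with 20 or more genes tested, the median share called at 2-fold was 4.17% over 214 windows. The highest shares were 11 of 56 genes (19.6%) from 25 Mb on chromosome 5 and 15 of 90 (16.7%) from 37 Mb on chromosome 3, with 9 of 54 (16.7%) from 6 Mb on chromosome 3.

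Of the lists with 20 or more genes tested, the MATE family held the highest share of genes called higher. Of 62 MATE genes listed, 26 were tested, and 15 were higher and 5 lower in Fvmate51-2, with a median log2 difference of 0.42. The summed level was 692 ± 12.1 FPKM in Fvmate51-2 and 543 ± 25.3 FPKM in WT (SD, n = 3 each). The genes described as DETOXIFICATION 35, in Arabidopsis a tonoplast carrier linked to flavonoids, went in both directions. FvH4_7g30080 had 169, 175 and 178 FPKM in Fvmate51-2, against 54.7, 53.7 and 54.6 FPKM in WT (log2 difference 1.66 ± 0.06, adjusted p = 2.17e-08). FvH4_7g30023, on the same chromosome, had 1.57, 1.94 and 1.77 FPKM in Fvmate51-2 and 19.2, 20.01 and 17.8 FPKM in WT (10.8-fold lower; log2 difference -2.86 ± 0.10, adjusted p = 1.25e-08). The other DETOXIFICATION 35 genes, FvH4_7g30070 and FvH4_7g15630, were higher by log2 differences of 0.61 and 0.45 (adjusted p = 0.00117 and 0.0137). How reads shared between such near copies were counted is not given in the sources used here, so their single values are uncertain. DETOXIFICATION 48 (FvH4_1g15940) had 5.67, 4.91 and 5.8 FPKM in Fvmate51-2, against 0.579, 0.892 and 0.672 FPKM in WT (log2 difference 1.92 ± 0.12, adjusted p = 8.93e-07). DETOXIFICATION 12 (FvH4_4g26362) had 11.6, 12.1 and 12.2 FPKM in Fvmate51-2 and 3.97, 4.43 and 3.92 FPKM in WT (log2 difference 1.34 ± 0.08, adjusted p = 6.18e-07). In both genes every mutant library was more than 2-fold above the highest WT library. DETOXIFICATION 33 (FvH4_2g40430) ran the other way with 11.9, 13.5 and 14.8 FPKM in Fvmate51-2, against 34.1, 35.8 and 36.6 FPKM in WT (log2 difference -1.34 ± 0.08, adjusted p = 9.49e-07). So did DETOXIFICATION 41 (FvH4_2g26470), the family member that in Arabidopsis carries proanthocyanidin precursors, with 4.52, 4.79 and 5.18 FPKM in Fvmate51-2 and 9.53, 12.2 and 9.61 FPKM in WT (log2 difference -0.97 ± 0.10, adjusted p = 5.81e-05). One of the genes described as DETOXIFICATION 27 was lower (FvH4_5g36191, log2 difference -0.89, adjusted p = 2.54e-06) and another higher (FvH4_5g36170, log2 difference 1.00, adjusted p = 2.04e-05). Genes of one description therefore did not move as a block. DETOXIFICATION 43 (FvH4_7g01040), of the branch that includes citrate carriers, had 29.7, 28.7 and 30.5 FPKM in Fvmate51-2, against 16.4, 17.7 and 16.2 FPKM in WT (log2 difference 0.79 ± 0.07, adjusted p = 1.85e-05). The most abundant member, DETOXIFICATION 55 (FvH4_4g18550), had 171, 174 and 186 FPKM in Fvmate51-2, against 171, 184 and 159 FPKM in WT and did not pass the test (adjusted p = 0.676).

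**Figure D2:**
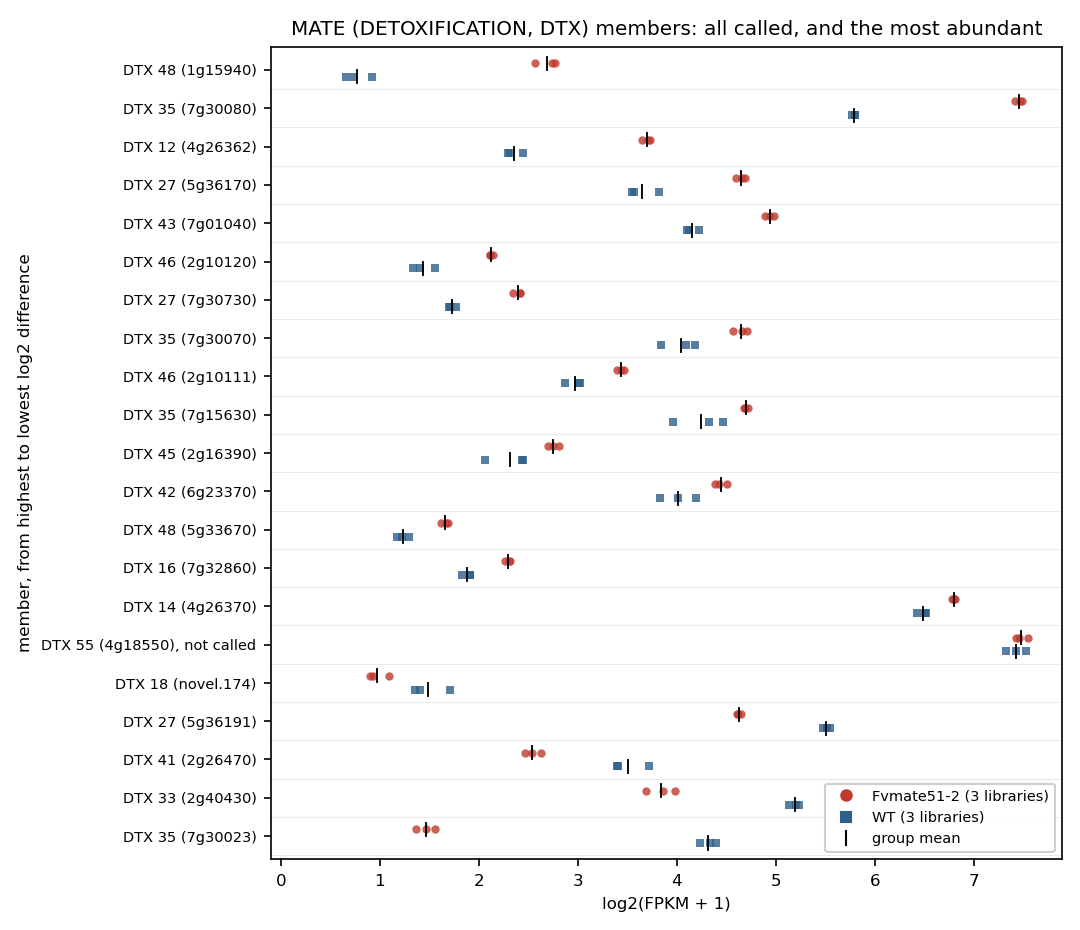
Levels of MATE family genes in log2(FPKM + 1), 1 point per library (circles Fvmate51-2, squares WT, black ticks group means), for the 20 members called and the most abundant one, which was not. The 15 members at the top are higher in Fvmate51-2 and the 5 at the bottom lower, and the groups do not overlap in any of these 20.

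Other carriers and conjugating enzymes for organic compounds also changed. ABC transporters, pumps driven by ATP, had 16 of 56 higher and 5 lower (median 0.09). Without WT replicate 3 they had 13 higher and 7 lower (median 0.05), and without WT replicate 1 or 2 the median was 0.15. With the trend of gene length taken out, an alternative described with the ribosomal proteins below, they had 14 higher and 10 lower (median 0.002). Members of the C family, which load glutathione conjugates and glycosides into vacuoles, led them. ABCC8 (FvH4_6g33070) had 24, 25.3 and 26.7 FPKM in Fvmate51-2, against 7.87, 7.21 and 4.75 FPKM in WT (log2 difference 1.81 ± 0.14, adjusted p = 4.99e-06). ABCC12 (FvH4_3g09710) had 30.1, 29.7 and 32 FPKM in Fvmate51-2 and 9.42, 10.1 and 5.77 FPKM in WT (log2 difference 1.78 ± 0.16, adjusted p = 1.61e-05). The mutant libraries were close to each other in both genes, and WT varied more. Glutathione S-transferases, which attach glutathione to reactive compounds or act as carriers of flavonoids, had 11 of 37 higher and 8 lower (median 0.04, with 0.02 without WT replicate 2 and 0.07 without WT replicate 3). FvH4_6g12680 had 66.3, 62 and 55.2 FPKM in Fvmate51-2, against 12.9, 12.3 and 14.3 FPKM in WT (log2 difference 2.13 ± 0.11, adjusted p = 2.44e-07). The lambda-class gene L3 (FvH4_6g14970) had 229, 231 and 217 FPKM in Fvmate51-2, against 95.9, 90.8 and 99.6 FPKM in WT (log2 difference 1.23 ± 0.08, adjusted p = 1.99e-06). By contrast the F11-type gene FvH4_1g27460, of the phi class whose members in several plants are needed for anthocyanin to reach the vacuole, had 556, 567 and 492 FPKM in Fvmate51-2 and 989, 1003 and 1206 FPKM in WT (log2 difference -0.98 ± 0.11, adjusted p = 6.38e-05). It had the highest level of the family in WT and lay below WT in every mutant library.

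Flavonoid and anthocyanin enzymes were lower where they were abundant. Of 33 such genes 13 were tested, and 6 were lower and 2 higher (median log2 difference -0.38), and 1 higher without WT replicate 3 or any single Fvmate51-2 library. Their summed level was 1900 ± 42.3 FPKM in Fvmate51-2 against 4118 ± 426 FPKM in WT (SD, n = 3 each). Along the pathway, chalcone isomerase-like protein 2 (FvH4_7g25890), a helper of the first ring-forming steps, had 534, 544 and 488 FPKM in Fvmate51-2, against 1150, 1171 and 1444 FPKM in WT (log2 difference -1.26 ± 0.12, adjusted p = 2.78e-05). Naringenin,2-oxoglutarate 3-dioxygenase (FvH4_1g11810), which makes dihydroflavonols, had 451, 457 and 458 FPKM in Fvmate51-2, against 866, 912 and 1096 FPKM in WT (log2 difference -1.06 ± 0.11, adjusted p = 4.77e-05). Dihydroflavonol 4-reductase (FvH4_2g39520), the first enzyme committed to anthocyanins and proanthocyanidins, had 183, 185 and 183 FPKM in Fvmate51-2 and 413, 426 and 450.1 FPKM in WT (log2 difference -1.22 ± 0.07, adjusted p = 3.77e-07). Leucoanthocyanidin dioxygenase (FvH4_5g01170), which forms the coloured anthocyanidin, had 653, 662 and 643 FPKM in Fvmate51-2, against 1277, 1329 and 1517 FPKM in WT (log2 difference -1.07 ± 0.08, adjusted p = 5.06e-06). These 4 enzymes stood at less than 50% of the WT mean in every mutant library. Outside the 13 genes counted above, anthocyanidin 3-O-glucosyltransferase 1 (FvH4_7g33840), which fixes the pigment with glucose, had 333, 351 and 339.9 FPKM in Fvmate51-2, against 500.4, 548 and 561 FPKM in WT (log2 difference -0.65 ± 0.12, adjusted p = 0.00263). Anthocyanidin reductase (FvH4_5g04220), of the proanthocyanidin branch, had 28, 33.7 and 25.7 FPKM in Fvmate51-2 and 46.1, 41.5 and 36.6 FPKM in WT (log2 difference -0.50 ± 0.11, adjusted p = 0.00789). Flavonoid 3'-monooxygenase (FvH4_5g14010) had 23.9, 25.6 and 26.5 FPKM in Fvmate51-2, against 32.1, 32.9 and 34.9 FPKM in WT and did not pass the test (adjusted p = 0.0737). In this gene, too, the mutant libraries lay below the WT libraries. Flavonol synthase 1 (FvH4_2g07082), which draws dihydroflavonols into flavonols, was the member that rose most, with 8.91, 7.89 and 8.9 FPKM in Fvmate51-2, against 2.58, 2.6 and 3.26 FPKM in WT (log2 difference 1.33 ± 0.14, adjusted p = 5.6e-05).

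Upstream of that branch, and in the lignin branch, several enzymes were higher. Phenylalanine ammonia-lyase opens the whole pathway, and its 2 well-expressed genes moved apart. FvH4_7g19130 had 152, 167 and 168 FPKM in Fvmate51-2, against 43, 44.5 and 40.2 FPKM in WT (log2 difference 1.91 ± 0.11, adjusted p = 4.87e-07). FvH4_6g16060 had 194, 199.5 and 211 FPKM in Fvmate51-2 and 290.3, 311 and 292 FPKM in WT (log2 difference -0.56 ± 0.11, adjusted p = 0.00348). A 4-coumarate--CoA ligase (FvH4_4g09340), which activates the acids for all branches, had 47.6, 52.4 and 53.5 FPKM in Fvmate51-2, against 29.8, 30.8 and 20.4 FPKM in WT (log2 difference 0.92 ± 0.16, adjusted p = 0.00142). Of 7 genes of the entry steps 3 were higher and 1 lower (median 0.26, and 0.16 without WT replicate 3). Lignin enzymes and laccases had 8 of 34 higher and 7 lower, with 4 of the higher ones and 1 of the lower ones at 2-fold or more. Their median was -0.03, but 0.01 without WT replicate 3 and 0.02 without Fvmate51-2 replicate 2. Caffeoyl-CoA O-methyltransferase (FvH4_2g05780) had 443, 467 and 418 FPKM in Fvmate51-2, against 163, 168 and 193 FPKM in WT (log2 difference 1.34 ± 0.09, adjusted p = 1.38e-06). Cinnamyl alcohol dehydrogenase 1 (FvH4_5g10200) had 174, 175 and 164 FPKM in Fvmate51-2 and 61.6, 64.5 and 68.5 FPKM in WT (log2 difference 1.39 ± 0.07, adjusted p = 1.28e-07). Both stood at more than 2 times the highest WT library in each mutant library. The abundant cinnamoyl-CoA reductase FvH4_6g28680 was also higher, with 554, 568 and 532 FPKM in Fvmate51-2, against 319, 331 and 349 FPKM in WT (log2 difference 0.73 ± 0.07, adjusted p = 2.35e-05). A weakly expressed gene of the same description, FvH4_5g26020, had 1.51, 1.21 and 1.49 FPKM in Fvmate51-2, against 6.71, 5.66 and 6.67 FPKM in WT (log2 difference -1.61 ± 0.12, adjusted p = 3.07e-06). Genes of the same lignin step thus differed in direction. UDP-glycosyltransferases, which attach sugars to phenolics and hormones, had 15 of 46 higher and 11 lower, with a median of -0.03, near 0 without Fvmate51-2 replicate 1 and 0.01 without WT replicate 3. UGT79B6 (FvH4_3g19220), whose Arabidopsis namesake acts on flavonols of pollen, had 4.02, 4.54 and 4 FPKM in Fvmate51-2, against 0.196, 0.334 and 0.377 FPKM in WT (log2 difference 1.99 ± 0.10, adjusted p = 2.33e-07). The flavonoid 3-O-glucosyltransferase 3 gene FvH4_6g39350 had 7.65, 7.17 and 6.27 FPKM in Fvmate51-2 and 1.3, 1.61 and 1.2 FPKM in WT (log2 difference 1.76 ± 0.11, adjusted p = 1.01e-06).

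**Figure D3:**
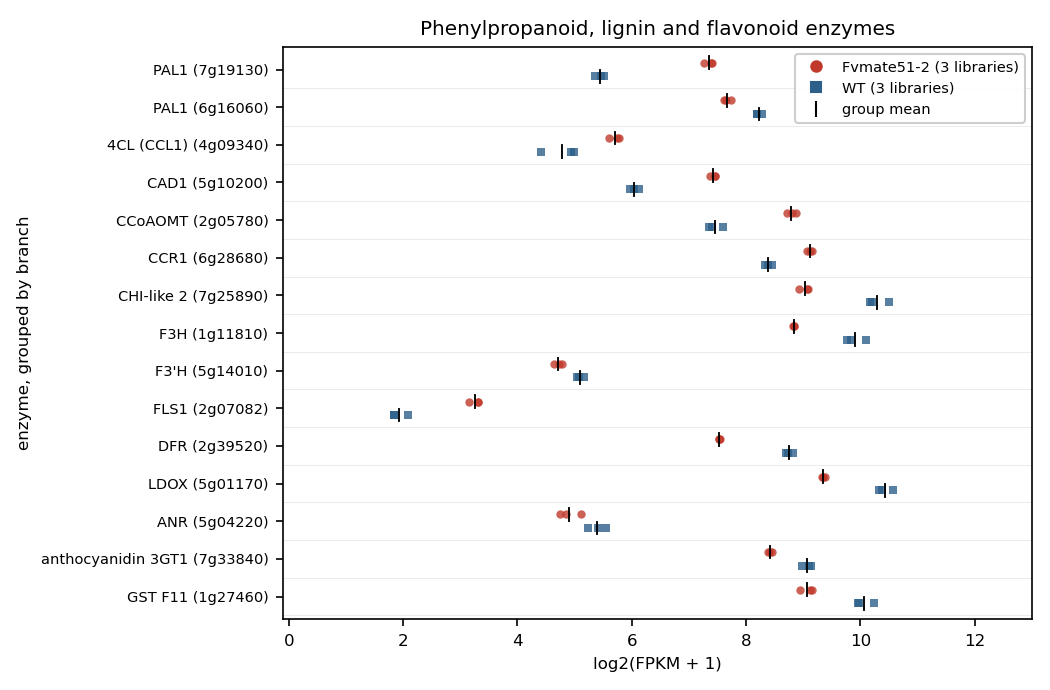
Enzymes of the phenylpropanoid entry, the lignin branch and the flavonoid branch, with a glutathione S-transferase of the F11 type, in log2(FPKM + 1); each point is 1 library (circles Fvmate51-2, squares WT) and black ticks are group means. The lignin enzymes shown lie to the right of WT in Fvmate51-2 and the flavonoid enzymes shown to the left, except flavonol synthase 1 (FLS1), with a log2 difference of 1.33. The genes were chosen, and the whole list of lignin enzymes and laccases had 8 of 34 higher and 7 lower.

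Genes that fill the vacuole with sugars, acids and water changed in both directions. Sugar transporters had 10 of 24 lower and 6 higher, with a median near 0. Sugar carrier protein C (FvH4_3g03900), a hexose importer of the plasma membrane, had 29.3, 33.5 and 34.7 FPKM in Fvmate51-2, against 96.5, 102 and 96.8 FPKM in WT (log2 difference -1.57 ± 0.08, adjusted p = 2e-07). SWEET1 (FvH4_2g14860), a hexose channel, had 36.8, 38.3 and 37 FPKM in Fvmate51-2 and 62.7, 68.3 and 74.8 FPKM in WT (log2 difference -0.86 ± 0.07, adjusted p = 1.14e-05). Both hexose carriers were lower in all 3 mutant libraries. The hexose importer STP13 (FvH4_4g15150) was higher, with 160.0, 169 and 177 FPKM in Fvmate51-2, against 83, 86.9 and 94.9 FPKM in WT (log2 difference 0.93 ± 0.09, adjusted p = 2.32e-05). Polyol transporter 5 (FvH4_2g08400) was also higher, with 21.2, 20.1 and 23.8 FPKM in Fvmate51-2, against 7.43, 8.13 and 7.53 FPKM in WT (log2 difference 1.38 ± 0.14, adjusted p = 4.43e-05). The carriers of hexoses and polyols therefore did not move as a block. Sucrose and starch enzymes had 11 of 47 higher and 3 lower (median 0.17). Sucrose-phosphate synthase 4 (FvH4_2g00340), which makes sucrose, had 9.6, 9.67 and 10.9 FPKM in Fvmate51-2, against 3.31, 3.7 and 2.2 FPKM in WT (log2 difference 1.46 ± 0.15, adjusted p = 4.02e-05). Sucrose synthase 2 (FvH4_2g26000), which cleaves it reversibly, had 63.6, 64.3 and 66.3 FPKM in Fvmate51-2 and 38.8, 41.1 and 33.4 FPKM in WT (log2 difference 0.77 ± 0.08, adjusted p = 4.6e-05). Without WT replicate 3 the sucrose and starch list had 8 higher and 6 lower, and without Fvmate51-2 replicate 1, 2 or 3 it had 6, 6 and 5 higher. With the trend of gene length taken out it had 9 higher and 6 lower (median 0.13). Among 37 genes for organic acids 9 were higher and 5 lower (median 0.11), with 8 higher and 3 lower without any single Fvmate51-2 library. The tonoplast dicarboxylate transporter (FvH4_3g00891), which carries malate into the vacuole, had 64, 64.6 and 67.9 FPKM in Fvmate51-2, against 232, 241 and 246 FPKM in WT (3.65-fold lower; log2 difference -1.85 ± 0.08, adjusted p = 4.14e-08). Phosphoenolpyruvate carboxylase (FvH4_3g18430), the main entry of carbon into malate, had 33.7, 34.2 and 38.3 FPKM in Fvmate51-2, against 20.1, 20.8 and 18.9 FPKM in WT (log2 difference 0.80 ± 0.09, adjusted p = 8.1e-05). The NADP-dependent malic enzyme FvH4_1g06000, which breaks malate down, had 149, 155 and 159 FPKM in Fvmate51-2 and 111, 116 and 111 FPKM in WT (log2 difference 0.45 ± 0.06, adjusted p = 0.00029). The carrier of malate was lower, and the enzymes that make and break it were higher. Proton pumps, which energise these carriers, had 4 of 26 higher and 3 lower, close to the background, and 4 higher and 5 lower without WT replicate 1.

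Aquaporins, the water channels of plasma membrane and tonoplast, had 11 of 22 lower and 3 higher (median -0.24; -0.15 without WT replicate 3, with 10 lower and 5 higher). Without Fvmate51-2 replicate 1 or 3 there were 6 and 7 lower. The most abundant, TIP1-1 (FvH4_6g16770), had 856, 901 and 916 FPKM in Fvmate51-2, against 1156, 1221 and 1686 FPKM in WT (log2 difference -0.58 ± 0.16, adjusted p = 0.0176; adjusted p = 0.0603 without Fvmate51-2 replicate 1). The plasma membrane genes PIP-type 7a (FvH4_7g24120) and PIP2-2 (FvH4_3g32260) were lower too, by log2 differences of -0.57 and -0.94 (adjusted p = 0.000584 and 0.000653), with no overlap of the groups. In TIP1-1 the highest WT library was WT replicate 3. Nitrogen and amino acid transporters had 20 of 58 higher and 11 lower (median 0.11, and 0.18 without WT replicate 1; 7 lower without Fvmate51-2 replicate 1). Lysine histidine transporter 1 (FvH4_6g52810) had 38.9, 40.2 and 43.3 FPKM in Fvmate51-2, against 17.5, 19.1 and 17.7 FPKM in WT (log2 difference 1.13 ± 0.07, adjusted p = 1.46e-06). The vacuolar amino acid transporter AVT1I (FvH4_6g48490) had 154, 155 and 151 FPKM in Fvmate51-2 and 84.3, 83.5 and 81.1 FPKM in WT (log2 difference 0.88 ± 0.06, adjusted p = 1.65e-06). NRT1/PTR FAMILY 5.1 (FvH4_7g25560), of a family that carries nitrate, peptides and hormones, had 8.64, 9.62 and 9.27 FPKM in Fvmate51-2, against 2.64, 2.78 and 2.82 FPKM in WT (log2 difference 1.44 ± 0.10, adjusted p = 3.12e-06).

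Metal homeostasis genes had 11 of 49 higher and 9 lower, and their summed level, 19134 ± 1414 FPKM in Fvmate51-2 and 11089 ± 1302 FPKM in WT (SD, n = 3 each), was set mostly by 1 gene. Metallothionein-like protein 1 (FvH4_3g20030), a small cysteine-rich metal binder, had 15398, 14848 and 13302 FPKM in Fvmate51-2, against 6557, 6710 and 8240 FPKM in WT (log2 difference 1.02 ± 0.16, adjusted p = 0.000745). It was the most abundant of all genes called higher. With quantile normalization its log2 difference was 0 and it was not called. That method gives a gene with the same rank in every library the same value, so this 0 cannot decide on the rise. A second ferritin gene, ferritin-3 (FvH4_7g25100), had 53.9, 54.4 and 52.6 FPKM in Fvmate51-2, against 21.2, 21.1 and 26.6 FPKM in WT (log2 difference 1.20 ± 0.09, adjusted p = 5.36e-06). Vacuolar iron transporter 1 (FvH4_4g33340), which moves iron into the vacuole, had 2.96, 3.28 and 2.76 FPKM in Fvmate51-2 and 0.821, 0.827 and 1.46 FPKM in WT (log2 difference 0.99 ± 0.13, adjusted p = 0.000232). With ferritin above and ORG2 below, iron genes held some of the largest differences of both signs. Metal tolerance protein 11 (FvH4_7g21220), a manganese carrier, had 50.6, 51.5 and 48.9 FPKM in Fvmate51-2, against 75.2, 77.4 and 80.2 FPKM in WT (log2 difference -0.61 ± 0.08, adjusted p = 0.000145).

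Among volatile and pigment pathways outside the flavonoids, terpene synthases were mostly higher. Of 6 terpene synthases tested 4 were higher and 1 lower (median 0.56). Their summed level was 7636 ± 249 FPKM in Fvmate51-2 against 4476 ± 436 FPKM in WT (SD, n = 3 each). Germacrene D synthase (FvH4_5g06470), which makes a sesquiterpene, had 2725, 2835 and 3008 FPKM in Fvmate51-2, against 1175, 1226 and 1011 FPKM in WT (log2 difference 1.33 ± 0.10, adjusted p = 2.86e-06). Alpha-pinene synthase (FvH4_6g19300), which makes a monoterpene, had 4628, 4849 and 4828 FPKM in Fvmate51-2 and 2990, 3043 and 3955 FPKM in WT (log2 difference 0.53 ± 0.12, adjusted p = 0.00699). The call of this gene was lost with no filter on low values (adjusted p = 0.0742). By their Fvmate51-2 means both lay among the 15 most abundant genes tested. Carotenoid enzymes had 5 of 15 higher and 1 lower (median 0.21), led by phytoene synthase (FvH4_6g38780), the first committed enzyme, with 61.8, 66.7 and 61.7 FPKM in Fvmate51-2, against 24, 23.7 and 21.3 FPKM in WT (log2 difference 1.42 ± 0.07, adjusted p = 1.86e-07). Genes of aroma and fatty acid oxidation had 4 of 23 higher and 6 lower (3 lower without Fvmate51-2 replicate 1). Their summed level was 6787 ± 152 FPKM in Fvmate51-2 against 8382 ± 876 FPKM in WT (SD, n = 3 each), most of it the furanone reductase above. Cytochrome P450s, oxidases of many specialised pathways, had 27 of 61 higher and 8 lower (median 0.14, and 0.53 over the genes with a mean of at least 5 FPKM). Without any single Fvmate51-2 library or without WT replicate 2, 5 or fewer were lower. P450 714C2 (FvH4_6g00880), of a family that inactivates gibberellins in other plants, had 21.6, 19.3 and 21.4 FPKM in Fvmate51-2, against 3.95, 3.71 and 4.42 FPKM in WT (log2 difference 2.12 ± 0.11, adjusted p = 3.12e-07).

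In the cell wall lists more genes were lower than higher. The expansin, xyloglucan endotransglucosylase/hydrolase (XTH), galactosidase and cellulase list had 19 of 45 lower and 11 higher (median -0.13), and pectin enzymes had 9 of 28 lower and 2 higher. With quantile normalization the first list's median was -0.01. Pectin enzymes had 5 lower without Fvmate51-2 replicate 1 or 3. XTH22 (FvH4_4g09230) had 9.95, 8.8 and 8.54 FPKM in Fvmate51-2, against 20.4, 23.9 and 23.7 FPKM in WT (log2 difference -1.23 ± 0.09, adjusted p = 3.94e-06). The endoglucanases, which cut wall glucans, went apart. Endoglucanase 6 (FvH4_5g04490) had 929.7, 974 and 1002 FPKM in Fvmate51-2, against 1782, 1855 and 1562 FPKM in WT (log2 difference -0.84 ± 0.15, adjusted p = 0.00154). Endoglucanase 8 (FvH4_4g33940) had 2330, 2398 and 2414 FPKM in Fvmate51-2, against 1632, 1674 and 1611 FPKM in WT (log2 difference 0.54 ± 0.12, adjusted p = 0.00773). Beta-galactosidase 16 (FvH4_2g27470), with the highest level among the 45, was higher, with 2622, 2728 and 2877 FPKM in Fvmate51-2 and 1992, 2017 and 1616 FPKM in WT (log2 difference 0.55 ± 0.12, adjusted p = 0.00514). With quantile normalization neither endoglucanase 8 (log2 difference 0.17, adjusted p = 0.215) nor beta-galactosidase 16 (log2 difference 0.14, adjusted p = 0.435) was called. A pectinesterase (FvH4_1g09610), which removes methyl groups from pectin, had 7.44, 6.1 and 6.99 FPKM in Fvmate51-2, against 26.3, 26.6 and 26.2 FPKM in WT (log2 difference -1.81 ± 0.12, adjusted p = 1.5e-06). Pectate lyase 18 (FvH4_5g06720), a pectin-cutting enzyme, had 216, 219 and 211 FPKM in Fvmate51-2 and 288, 304 and 324 FPKM in WT (log2 difference -0.50 ± 0.08, adjusted p = 0.00122). Cellulose and xylan synthesis genes had 9 of 32 lower and 3 higher (median -0.14, with -0.22 and 11 lower without WT replicate 3 and -0.09 without WT replicate 1). With the trend of gene length taken out they had 17 lower and 3 higher (median -0.27).

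The cuticle list, also used here as a marker list of the epidermis, takes in GDSL esterases and was lower as a group. Of 43 genes tested 22 were lower and 6 higher (median -0.30; -0.31 without WT replicate 3). Over all 144 listed genes the summed level ran from 516 to 526 FPKM in Fvmate51-2 libraries and from 718 to 744 FPKM in WT libraries, 49 of the genes being at 0 in all 6. The CER2 genes, needed for the longest wax chains in Arabidopsis, led the fall. FvH4_5g34850 had 7.66, 7.64 and 6.57 FPKM in Fvmate51-2, against 58.6, 57.9 and 63 FPKM in WT (8.21-fold lower; log2 difference -2.88 ± 0.08, adjusted p = 2.89e-09). Its neighbour FvH4_5g34840 had 29.8, 28.3 and 26.3 FPKM in Fvmate51-2 and 66.3, 67.8 and 69.5 FPKM in WT (log2 difference -1.24 ± 0.07, adjusted p = 5.24e-07). Among the GDSL esterases, some of which build cutin, FvH4_6g51890 had 5.58, 5.3 and 5.28 FPKM in Fvmate51-2, against 15.5, 17.1 and 17.4 FPKM in WT (log2 difference -1.47 ± 0.09, adjusted p = 7.6e-07) and FvH4_6g35571 ran the other way with 3.28, 2.31 and 2.81 FPKM in Fvmate51-2, against 0.515, 0.594 and 0.621 FPKM in WT (log2 difference 1.26 ± 0.12, adjusted p = 1.83e-05). The GDSL esterase/lipase family, of which only some members build cutin, had 12 of 23 tested genes lower and 2 higher. CER2 genes and GDSL esterases were therefore both among the falls. Which of these GDSL genes act in cutin was not tested. Lipid transfer proteins, small secreted carriers of lipids found in epidermis, had 7 of 9 lower and none higher (median -0.54). FvH4_6g09990 had 3.13, 4.72 and 4.9 FPKM in Fvmate51-2, against 15.9, 20.9 and 21.3 FPKM in WT (log2 difference -1.96 ± 0.18, adjusted p = 1.86e-05). The most abundant, FvH4_6g09980, had 1358, 1386 and 1375 FPKM in Fvmate51-2 and 1467, 1582 and 1971 FPKM in WT and did not pass the test (adjusted p = 0.0931; 0.0431 without WT replicate 1). Neighbouring genes on chromosome 6 carry the same description, and how reads shared by such copies were counted is not given, so their single values are uncertain. The part of the epidermis in these values was not tested.

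Seed genes were lower with wide spread between libraries. Of 28 genes for seed storage proteins, oleosins and late embryogenesis abundant (LEA) proteins 16 were tested, and 11 were lower and 2 higher (median -0.87; -0.89 without WT replicate 3, with 9 lower). The oil body protein oleosin 18.5 kDa (FvH4_7g26900) had 6.51, 6.11 and 12.5 FPKM in Fvmate51-2, against 51.3, 36.1 and 36.1 FPKM in WT (log2 difference -2.22 ± 0.27, adjusted p = 0.000137). Oleosin H2 (FvH4_5g05960) had 5.1, 3.9 and 6.54 FPKM in Fvmate51-2 and 27.5, 17.9 and 19.2 FPKM in WT (log2 difference -1.86 ± 0.23, adjusted p = 0.00016). The storage globulin Prunin 1 gene FvH4_2g21400 had 6.53, 12.3 and 37.8 FPKM in Fvmate51-2, against 201, 115 and 91.3 FPKM in WT (log2 difference -3.04 ± 0.57, adjusted p = 0.00259). Fvmate51-2 replicate 3 was the highest of its group in these genes and WT replicate 1 the highest of WT, and the groups did not overlap. A vicilin-like gene (FvH4_3g33180) had 5.3, 4.51 and 8.52 FPKM in Fvmate51-2, against 35.8, 24.1 and 19.1 FPKM in WT (log2 difference -1.94 ± 0.28, adjusted p = 0.00048), again with Fvmate51-2 replicate 3 the highest of its group. Of the members that rose, FvH4_1g13730, described as vicilin-like, had 98.7, 93.9 and 90.02 FPKM in Fvmate51-2, against 29.3, 27.7 and 23.1 FPKM in WT (log2 difference 1.79 ± 0.10, adjusted p = 4.74e-07). The other was a LEA gene (FvH4_7g33540, log2 difference 0.42, adjusted p = 0.00455). With these the list's summed level over all 28 genes ran from 330 to 390 FPKM in Fvmate51-2 libraries and from 366 to 464 FPKM in WT libraries, and 5 genes were at 0 in all 6. How much of the fruit's RNA came from achenes was not tested. Of the other tissue markers, 42 vascular genes had 14 tested, with 2 higher and 5 lower (4 higher without WT replicate 3). Their summed level ran from 378 to 393 FPKM in Fvmate51-2 libraries and from 462 to 529 FPKM in WT libraries, with 12 at 0 in all 6. Pollen and anther markers were nearly absent. Among them 2 of 22 genes were tested, 1 of which was lower (none without WT replicate 3 or Fvmate51-2 replicate 2 or 3), and 9 were at 0 in all 6. Their sum ran from 14.98 to 16.4 FPKM in Fvmate51-2 and from 16.0 to 16.8 FPKM in WT.

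Ribosomal protein and histone genes fell together. Of 177 cytosolic ribosomal protein genes 146 were lower and 3 higher (median log2 difference -0.45). Their summed level was 27927 ± 1849 FPKM in Fvmate51-2 and 38485 ± 5648 FPKM in WT (SD, n = 3 each). L23 (FvH4_2g20670) had 625, 635 and 538 FPKM in Fvmate51-2, against 806, 850.3 and 1223 FPKM in WT (log2 difference -0.66 ± 0.14, adjusted p = 0.00577). L31 (FvH4_3g43260) had 36.3, 36 and 31.6 FPKM in Fvmate51-2 and 56.9, 58.6 and 71.4 FPKM in WT (log2 difference -0.83 ± 0.09, adjusted p = 8.36e-05). WT replicate 3 was the highest library in both. Without it 116 were lower and 3 higher, with a median of -0.35, and without Fvmate51-2 replicate 3 there were 88 lower and 3 higher, with a median of -0.40. The higher ones included L27 (FvH4_7g04670), with 170.5, 169 and 174 FPKM in Fvmate51-2, against 21.9, 20.1 and 23.3 FPKM in WT (log2 difference 2.92 ± 0.11, adjusted p = 2.51e-08). L24 (FvH4_6g28801) was another, with 432, 402 and 506 FPKM in Fvmate51-2 and 175, 154 and 112 FPKM in WT (log2 difference 1.62 ± 0.15, adjusted p = 1.64e-05). Histones, the proteins that pack DNA, had 28 of 40 lower and none higher (median -0.65), 10 of them by 2-fold or more. Without WT replicate 3 there were 25 lower and 1 higher, and the median was -0.50. An H2A.3 gene (FvH4_3g02940) had 9.05, 11.1 and 7.96 FPKM in Fvmate51-2, against 36.8, 38.4 and 44.9 FPKM in WT (log2 difference -1.99 ± 0.13, adjusted p = 1.22e-06). An H3.2 gene (FvH4_3g39201) had 35.8, 38 and 33.8 FPKM in Fvmate51-2 and 80.8, 85.4 and 105 FPKM in WT (log2 difference -1.30 ± 0.10, adjusted p = 3.69e-06). The most abundant, H2B.7 (FvH4_3g40690), had 302, 299 and 259.7 FPKM in Fvmate51-2, against 370.3, 378 and 467 FPKM in WT (log2 difference -0.49 ± 0.10, adjusted p = 0.00395). Both lists are made of short genes, with median lengths of 957 and 930 bases against 1931 over all genes tested. In these libraries genes from 500 to 1000 bases had a median log2 difference of -0.11 with 22.8% lower and 11.2% higher, and genes of 4000 bases or more had 0.22 with 5.09% lower and 22.1% higher. With that trend of length taken out, an alternative added after seeing the data, 147 ribosomal protein genes were lower and 4 higher (median -0.36), and 27 histone genes were lower and 2 higher (median -0.55). Over all genes tested 2646 were then higher and 2645 lower. The part of RNA quality in the trend was not tested.

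Of related machinery, lists for translation and ribosome assembly also held more lower than higher genes. Translation factors had 13 of 53 lower and none higher (7 lower without Fvmate51-2 replicate 1, 8 without replicate 3). Ribosome biogenesis genes had 10 of 49 lower and none higher (5 lower without Fvmate51-2 replicate 3, and 1 higher without WT replicate 3). Mitochondrial respiration genes had 10 of 57 lower and 1 higher (median -0.23, and -0.12 with 7 lower and none higher without WT replicate 3). Their share lower, 17.5%, was near the background, and their share higher, 1.75%, was below it. Without Fvmate51-2 replicate 1 or 3 there were 6 and 5 lower, and without WT replicate 1 there were 16. Ribosomal proteins of plastids and mitochondria had 8 of 67 lower and 2 higher (median -0.04), but 4 lower and 6 higher without WT replicate 3 (median 0.05). Without Fvmate51-2 replicate 3 they had 3 lower and 2 higher (median 0.01), and without WT replicate 1 they had 12 lower. Proteasome subunits had 1 of 50 lower and 3 higher (median -0.05), and 1 lower and 5 higher without WT replicate 3 (median 0.02). In each of these lists the share called lower was below that of the cytosolic ribosomal proteins. DNA replication and mitosis genes had 18 of 66 lower and 9 higher (5 higher without Fvmate51-2 replicate 1 or WT replicate 2). MCM4 (FvH4_2g09990), a subunit of the replicative helicase, had 6.87, 6.8 and 6.84 FPKM in Fvmate51-2, against 12, 11.4 and 10.3 FPKM in WT (log2 difference -0.64 ± 0.08, adjusted p = 0.000192). The GINS subunit SLD5 (FvH4_4g13700) had 5.35, 4.83 and 4.24 FPKM in Fvmate51-2 and 14, 13 and 17.3 FPKM in WT (log2 difference -1.44 ± 0.16, adjusted p = 7.44e-05). The kinesin KIN-12B (FvH4_4g12770), of the phragmoplast that lays down the cell plate, rose, with 8.86, 11.1 and 11.8 FPKM in Fvmate51-2, against 1.91, 2.06 and 1.09 FPKM in WT (log2 difference 2.12 ± 0.16, adjusted p = 3.46e-06).

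**Figure D4:**
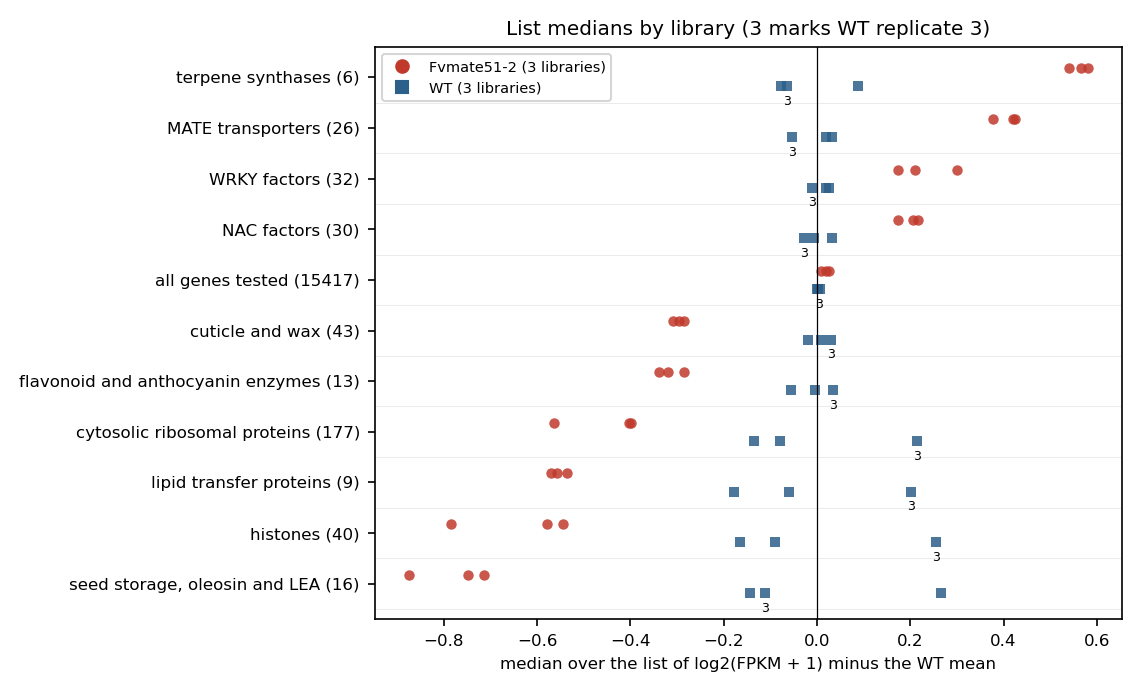
For each gene list, the median over its tested genes of log2(FPKM + 1) minus the gene's WT mean, 1 point per library (circles Fvmate51-2, squares WT; the small 3 marks WT replicate 3); the number of genes is in brackets. The ribosomal protein and histone medians of WT replicate 3 lie above those of the other WT libraries, and all Fvmate51-2 libraries lie below every WT library in both lists.

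Among hormone pathways, ethylene genes held more higher than lower calls, jasmonate and gibberellin genes held large differences of both signs, and auxin and abscisic acid genes had equal numbers higher and lower. Ethylene genes had 9 of 22 higher and 2 lower (median 0.21), and 6 to 8 higher without any single library. With the trend of gene length taken out they had 8 higher and 4 lower (median 0.11). The ethylene-forming 1-aminocyclopropane-1-carboxylate (ACC) oxidase 1 (FvH4_3g01280) had 109.9, 109.7 and 105 FPKM in Fvmate51-2, against 43.8, 44.3 and 47.9 FPKM in WT (log2 difference 1.24 ± 0.07, adjusted p = 2.76e-07). ACC oxidase homolog 1 (FvH4_4g03250) had 23.9, 27.4 and 24.9 FPKM in Fvmate51-2 and 7.13, 6.82 and 6.79 FPKM in WT (log2 difference 1.74 ± 0.08, adjusted p = 1.45e-07). Both genes stood at more than 2 times the highest WT library in each mutant library. The homolog is in the list by its description, and whether it forms ethylene was not tested. Jasmonate genes had 12 of 27 higher and 7 lower (median 0.15, with 0.10 without WT replicate 1 and 0.40 over the genes with a mean of at least 5 FPKM). The abundant jasmonic acid carboxyl methyltransferase 2 (FvH4_2g39441), which makes the volatile methyl ester, had 1961, 1990 and 2034 FPKM in Fvmate51-2, against 761, 806 and 841 FPKM in WT (log2 difference 1.31 ± 0.08, adjusted p = 6.31e-07). 12-oxophytodienoate reductase 1 (FvH4_5g32710) had 19.8, 18.5 and 18.6 FPKM in Fvmate51-2 and 6.69, 6.14 and 5.68 FPKM in WT (log2 difference 1.48 ± 0.08, adjusted p = 4.68e-07). Both of these genes were higher than WT in every mutant library. The repressor TIFY 10B (FvH4_6g35140), itself switched on by jasmonate in other plants, fell, with 13.3, 13.2 and 13.5 FPKM in Fvmate51-2, against 34.3, 38.6 and 39.1 FPKM in WT (log2 difference -1.42 ± 0.08, adjusted p = 3.76e-07). Of 11 gibberellin genes 3 were higher and 5 lower. The biosynthetic gibberellin 3-beta-dioxygenase 1 (FvH4_6g30780) had 4.47, 4.15 and 3.81 FPKM in Fvmate51-2, against 0.233, 0.397 and 0.5 FPKM in WT (log2 difference 1.90 ± 0.13, adjusted p = 1.57e-06). The inactivating gibberellin 2-beta-dioxygenase 1 (FvH4_3g16760) had 90.8, 92 and 93.2 FPKM in Fvmate51-2 and 43, 41.4 and 43.4 FPKM in WT (log2 difference 1.09 ± 0.06, adjusted p = 5.51e-07). Enzymes that make and remove the hormone were thus higher side by side. The receptors went opposite ways, with GID1B (FvH4_2g24370) at 11.7, 10.3 and 10.8 FPKM in Fvmate51-2, against 4.44, 4.52 and 4.45 FPKM in WT (log2 difference 1.12 ± 0.09, adjusted p = 7.97e-06). GID1C (FvH4_6g04960) was at 102, 102 and 103 FPKM in Fvmate51-2, against 140.4, 146 and 160.4 FPKM in WT (log2 difference -0.53 ± 0.08, adjusted p = 0.00059). Auxin response genes had 11 of 70 higher and 11 lower (7, 6 and 6 higher without Fvmate51-2 replicate 1, 2 or 3), among them the lower ARG2 (FvH4_2g25860), with 38.1, 48 and 38.4 FPKM in Fvmate51-2 and 128, 117 and 172 FPKM in WT (log2 difference -1.71 ± 0.14, adjusted p = 6.76e-06). SAUR50 (FvH4_2g10770) was lower too, with 28.1, 25.2 and 25.4 FPKM in Fvmate51-2, against 61.5, 60.04 and 82.2 FPKM in WT (log2 difference -1.33 ± 0.11, adjusted p = 8.55e-06). Both auxin response genes were highest in WT replicate 3. Abscisic acid genes had 12 of 62 higher and 12 lower, and 7 higher and 13 lower without Fvmate51-2 replicate 1. The protein phosphatase 2C 25 (FvH4_3g38990) had 3.09, 4.15 and 3.9 FPKM in Fvmate51-2, against 18.2, 17.2 and 16.8 FPKM in WT (log2 difference -1.97 ± 0.10, adjusted p = 1.43e-07). The abscisic acid synthesis gene NCED2 (FvH4_3g05440) had 341, 357 and 367 FPKM in Fvmate51-2 and 292, 307 and 296 FPKM in WT and did not pass the test (adjusted p = 0.102).

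Transcription factor families differed in the direction of their calls. NAC factors, several of which drive fruit ripening, had 11 of 30 higher and 2 lower (median 0.21), WRKY factors 15 of 32 higher and 5 lower (median 0.24), and homeodomain factors 17 of 39 higher and 4 lower (median 0.24; 11 higher without Fvmate51-2 replicate 2 or 3). AP2/ERF factors went the other way, with 14 of 36 lower and 4 higher (median -0.16), and 7 of the 14 by 2-fold or more. NAC83 (FvH4_4g23130) had 319.8, 317 and 320.0 FPKM in Fvmate51-2 and 194, 187 and 214 FPKM in WT (log2 difference 0.68 ± 0.07, adjusted p = 5.22e-05). The lower NAC35 (FvH4_6g33050) had 1.08, 1.26 and 1.39 FPKM in Fvmate51-2, against 7.1, 5.42 and 5.09 FPKM in WT (log2 difference -1.61 ± 0.14, adjusted p = 1.07e-05). WRKY71 (FvH4_6g38370) had 62.1, 64.2 and 62.8 FPKM in Fvmate51-2, against 30.8, 30.2 and 29.5 FPKM in WT (log2 difference 1.04 ± 0.07, adjusted p = 1.08e-06). WRKY40 (FvH4_6g28650), a stress-response factor in Arabidopsis, had 3.66, 4.01 and 3.96 FPKM in Fvmate51-2 and 9.02, 8.77 and 7.87 FPKM in WT (log2 difference -0.97 ± 0.10, adjusted p = 4.67e-05). Both families thus held strong members of either sign. Beside the loss of ATHB-6, WUSCHEL-related homeobox 8 (FvH4_3g10130) had 14.9, 14.2 and 14 FPKM in Fvmate51-2, against 2.89, 3.14 and 3.41 FPKM in WT (log2 difference 1.89 ± 0.09, adjusted p = 9.91e-08). FvH4_4g32060, described as ATHB-13, had 5.05, 5.28 and 5.41 FPKM in Fvmate51-2 and 1.72, 1.88 and 2.28 FPKM in WT (log2 difference 1.08 ± 0.09, adjusted p = 1.22e-05). Of the AP2/ERF factors, ERF5 (FvH4_7g26930) had 15.2, 14.2 and 14.3 FPKM in Fvmate51-2, against 44.4, 48.3 and 47 FPKM in WT (log2 difference -1.61 ± 0.07, adjusted p = 6.48e-08). The ERF026 gene FvH4_5g01460 had 0.185, 0.21 and 0.0593 FPKM in Fvmate51-2, against 5.43, 6.2 and 5.82 FPKM in WT (log2 difference -2.57 ± 0.10, adjusted p = 2.89e-08). Both AP2/ERF genes were far below WT in all 3 mutant libraries. MYB factors had 9 of 33 higher and 10 lower (4, 5 and 5 higher without Fvmate51-2 replicate 1, 2 or 3), with MYB44 (FvH4_2g33810) at 40.6, 42 and 40.5 FPKM in Fvmate51-2, against 83.6, 83.4 and 102 FPKM in WT (log2 difference -1.10 ± 0.09, adjusted p = 7.63e-06). The abundant gene described as MYB1 (FvH4_5g32460) had 202, 203 and 181 FPKM in Fvmate51-2 and 188, 177 and 199 FPKM in WT and did not pass the test (adjusted p = 0.702). The bHLH factors had 7 of 29 higher and 3 lower, and 4 higher without any single Fvmate51-2 library.

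Defence and stress lists held calls in both directions. The list of chitinases, glucanases, thaumatins and Bet v 1 proteins, most of them pathogenesis-related, had 15 of 72 higher and 22 lower (median -0.14; -0.05 without WT replicate 3), with 8 of the higher and 4 of the lower at 2-fold. Thaumatin-like protein 1a (FvH4_6g16950) had 370.1, 386 and 376 FPKM in Fvmate51-2, against 108, 116 and 122 FPKM in WT (log2 difference 1.70 ± 0.11, adjusted p = 1.05e-06). The endochitinase EP3 gene FvH4_4g10610 had 213, 202 and 217 FPKM in Fvmate51-2 and 93.9, 101 and 107 FPKM in WT (log2 difference 1.06 ± 0.15, adjusted p = 0.000328). The strawberry allergen Fra a 1.08 (FvH4_4g19040) had 90.8, 83.4 and 81.2 FPKM in Fvmate51-2, against 39.1, 37.6 and 48.3 FPKM in WT (log2 difference 1.02 ± 0.11, adjusted p = 5.83e-05). Each of these 3 was about 2- to 3-fold higher in the mutant with no overlap, but they do not stand for the list, where more genes were lower. The family of glucan endo-1,3-beta-glucosidases had 10 of 23 tested genes lower and none higher (median -0.26). Receptors of the NB-LRR class, intracellular immune receptors, had 24 of 122 higher and 11 lower, and 17 higher and 18 lower without WT replicate 3, so their direction depends on that library. With the trend of gene length taken out they had 22 higher and 26 lower. Without Fvmate51-2 replicate 1 or 3 there were 12 and 11 higher. Roq1 (FvH4_1g04740), named after an immune receptor of a tobacco relative, was nearly lost, with 0.104, 0.0449 and 0.0445 FPKM in Fvmate51-2, against 7.19, 7.22 and 4.91 FPKM in WT (log2 difference -2.79 ± 0.13, adjusted p = 1.42e-07). Receptor-like kinases had 24 of 138 higher and 24 lower (14 lower without Fvmate51-2 replicate 1). The receptor lists thus gave no common direction. Heat shock proteins and chaperones had 15 of 61 lower and 7 higher, led by the small 17.8 kDa class I protein (FvH4_7g23710), with 4.81, 5.38 and 4.26 FPKM in Fvmate51-2, against 28.4, 18.9 and 19.4 FPKM in WT (log2 difference -1.98 ± 0.19, adjusted p = 2.32e-05). HSP70-4 (FvH4_7g09000) followed, with 7.58, 7.45 and 7.86 FPKM in Fvmate51-2 and 18.9, 21.3 and 17.6 FPKM in WT (log2 difference -1.23 ± 0.11, adjusted p = 1.64e-05). Both chaperones were lower in all 3 mutant libraries. Gene silencing and chromatin genes had 14 of 69 higher and 8 lower, and 11 and 10 without WT replicate 3. Without Fvmate51-2 replicate 1, 2 or 3 there were 8, 7 and 8 higher against 8 lower. With the trend of gene length taken out, 11 were higher and 12 lower. The DNA methyltransferase DRM2 (FvH4_6g30450), which sets new methyl marks, had 94.5, 93.7 and 97.4 FPKM in Fvmate51-2, against 39, 35.1 and 35.4 FPKM in WT (log2 difference 1.36 ± 0.07, adjusted p = 3.26e-07). CMT3 (FvH4_1g00970), which maintains marks outside CG, had 6.03, 6.86 and 7.13 FPKM in Fvmate51-2 and 16, 14.9 and 13.2 FPKM in WT (log2 difference -1.03 ± 0.10, adjusted p = 2.51e-05). The pair of DNA methyltransferases therefore went opposite ways. Photosynthesis genes had 2 of 24 higher and 2 lower (8.33% on either side).

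**Figure D5:**
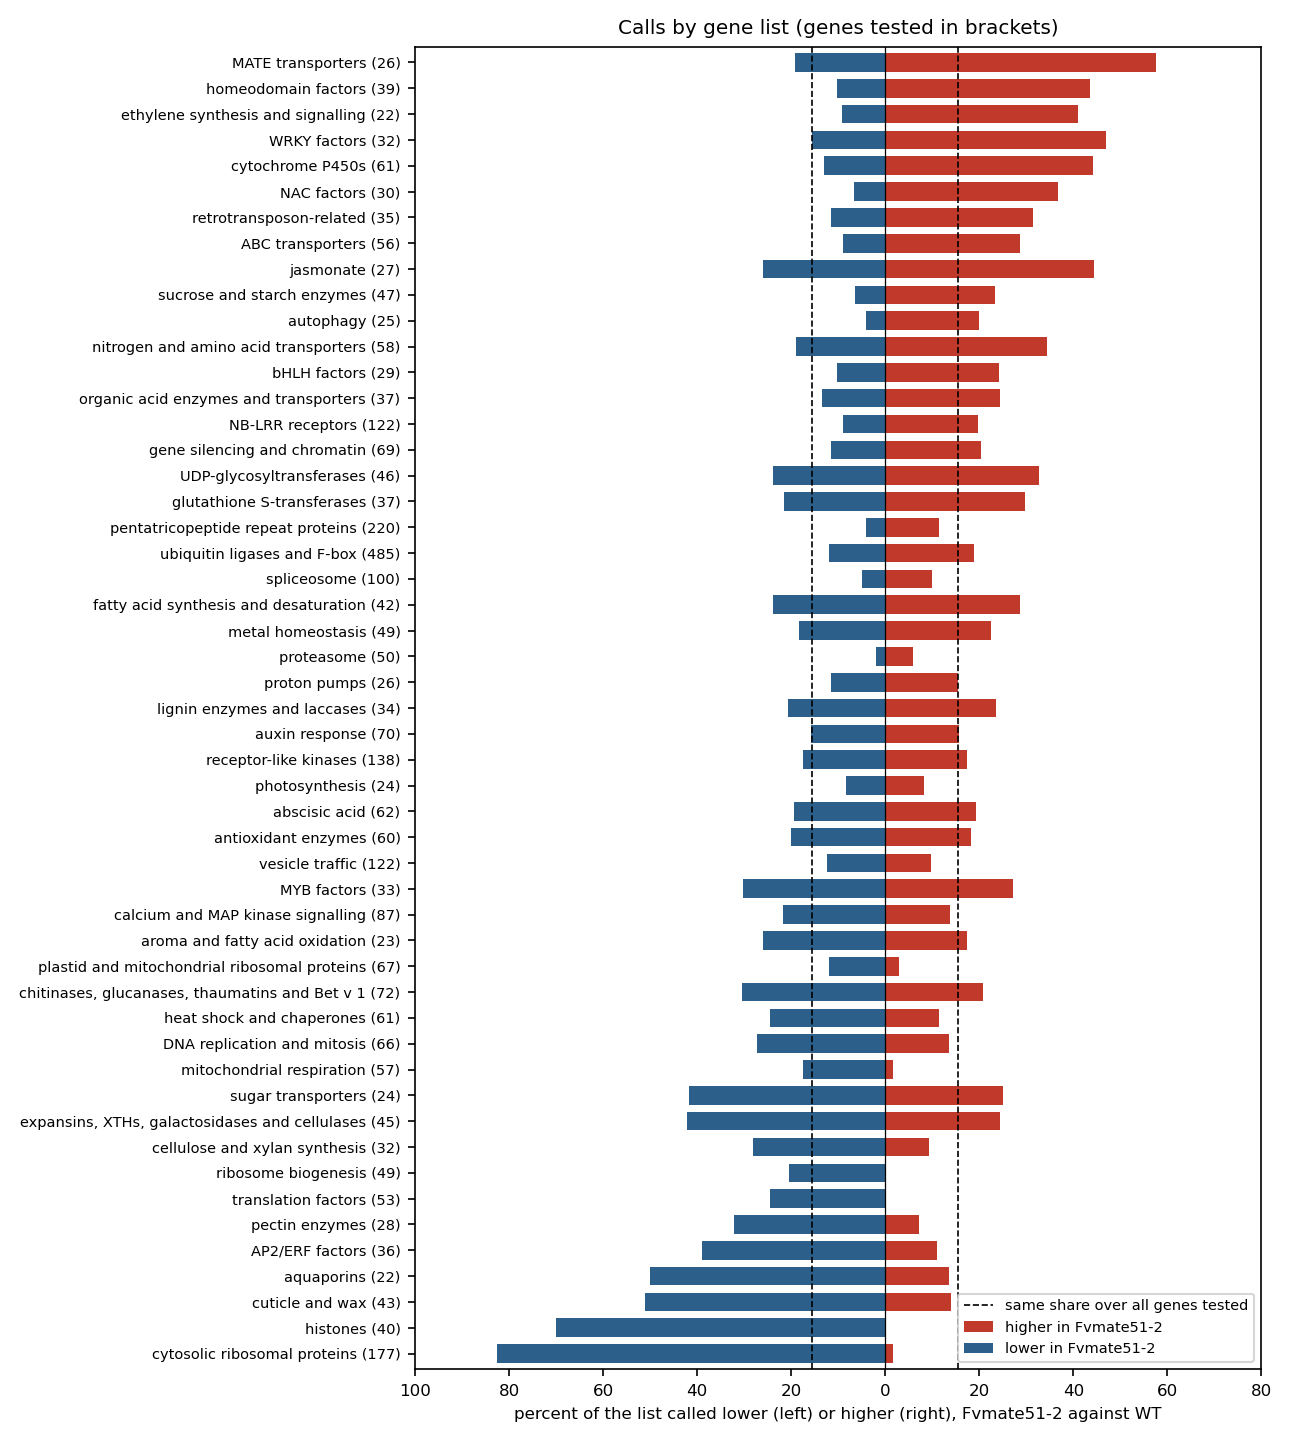
Share of each gene list called higher (right) or lower (left) in Fvmate51-2 against WT, in percent of the genes tested (number in brackets), for the lists with 20 or more tested genes. Dashed lines mark the shares over all genes tested, 15.5% on either side; the cytosolic ribosomal proteins reach furthest to the left and the MATE transporters furthest to the right.

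Grouping the descriptions into families without any chosen list gave 83 families of 15 or more tested members. The highest shares called higher were in homeobox-leucine zipper proteins (10 of 17, 58.8%), DETOXIFICATION proteins (57.7%), WRKY factors (48.4%) and cytochromes (40.9%), and FRIGIDA-like proteins, relatives of an Arabidopsis flowering regulator, followed with 6 of 15 and none lower. The highest shares called lower were in 40S (84.4%) and 60S (78.8%) ribosomal proteins and histones (66.7%), then calcium-binding proteins (11 of 19, 57.9%), GDSL esterases (52.2%) and aquaporins (47.6%). By level, genes with a mean of 200 FPKM or more were called lower in 34.0% and higher in 17.9%. Loci outside the annotation, 568 of the members, were called higher in 25.0% and lower in 11.97%, with no description to group them.

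The second mutant line did not always share these differences. Both comparisons use the same 3 WT libraries, so the lines were set against each other directly. Between them, 4219 of the 15417 genes (27.4%) differed, 2448 (15.9%) higher and 1771 (11.5%) lower in Fvmate51-2. Of the 4779 genes called against WT, 2211 also differed between the lines, and 420 were called in opposite directions in the lines with the difference itself called. The log2 differences that follow are Fvmate51-2 minus Fvmate51-1. The 3 genes named above from the list of chitinases, glucanases, thaumatins and Bet v 1 proteins were among the 420. Thaumatin-like protein 1a (FvH4_6g16950) had 3.63, 2.49 and 2.5 FPKM in Fvmate51-1 (log2 difference 6.62, adjusted p = 1.3e-10 between the lines). EP3 (FvH4_4g10610) had 2.98, 1.7 and 1.51 FPKM (log2 difference 6.14, adjusted p = 8.9e-10). Fra a 1.08 (FvH4_4g19040) had 1.23, 1.34 and 0.927 FPKM (log2 difference 5.32, adjusted p = 4.23e-10). They were thus close to silent in Fvmate51-1 and above WT in Fvmate51-2. Ferritin (FvH4_6g10770) stood at 3.17, 4.64 and 3.54 FPKM in Fvmate51-1 (log2 difference 5.40, adjusted p = 3.67e-10). ORG2 (FvH4_2g11650) stood at 14.6, 17 and 17.3 FPKM (log2 difference -3.90, adjusted p = 1.72e-09), so both genes lay on the other side of WT in that line. Carriers showed the same kind of difference. The DETOXIFICATION 35 gene FvH4_7g30080 had 25.8, 26.3 and 27.9 FPKM (log2 difference 2.66, adjusted p = 8.06e-10). DETOXIFICATION 43 (FvH4_7g01040) had 6.89, 6.82 and 7.41 FPKM (log2 difference 1.93, adjusted p = 1.61e-08). Glutathione S-transferases were higher than in Fvmate51-1 in 20 of 37 and lower in 4. The MATE list, too, differed between the lines, with 11 of 26 higher and 4 lower in Fvmate51-2. Lipid transfer proteins had 7 of 9 lower and 2 higher, and the cuticle list 19 of 43 lower and 7 higher. The shifts of these lists against WT were thus not shared in full by the lines. Other genes were not called between the lines, which does not show that the lines were alike. ATHB-6 (FvH4_1g20230) had 0.553, 0.487 and 0.9 FPKM in Fvmate51-1 (log2 difference 0.22, adjusted p = 0.183). The delta(12) desaturase (FvH4_3g44270) had 11.9, 9.94 and 11.9 FPKM (log2 difference 0.24, adjusted p = 0.117). The tonoplast dicarboxylate transporter (FvH4_3g00891) had 63.1, 54.4 and 63.5 FPKM (log2 difference 0.12, adjusted p = 0.272). All 3 were far below WT in both lines. Dihydroflavonol 4-reductase (FvH4_2g39520), at 306, 328 and 303 FPKM in Fvmate51-1, was lower still in Fvmate51-2 (log2 difference -0.76, adjusted p = 1.29e-05). So was leucoanthocyanidin dioxygenase (FvH4_5g01170), at 1108, 1096 and 1128 FPKM (log2 difference -0.77, adjusted p = 5.89e-05). Oleosin 18.5 kDa (FvH4_7g26900) had 43, 23.8 and 26.2 FPKM in Fvmate51-1, and the lines differed (log2 difference -1.79, adjusted p = 0.000605).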

How the data were processed

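Poly(A) RNA of fruits was sequenced on an Illumina platform, per the labels' protocols; the submitters' processing notes name featureCounts 2.0.6, StringTie 2.2.3, HISAT2 2.2.1 and fastp, with no role stated. The genome build, the strand setting and the treatment of shared reads are not given in the sources used here. The authors deposited 1 table of FPKM values for 9 libraries in 3 groups of 3. Multiplied by gene length, 100% of the values came within 0.02 of a whole number of fragments, which gave the depths. Values were analysed as log2(FPKM + 1) with limma 3.58.1 in R 4.3.3 (trend, 3 group means over all 9 libraries, 6 residual degrees of freedom), Benjamini-Hochberg adjustment over the 15417 members, two-sided, threshold 0.05; the code was checked on simulated data. Members and the 64 gene lists were chosen with earlier results of these data known. Genes were named by a rule: the 15 largest rises and falls, up to 4 members per list with the lowest adjusted p, the most abundant member, all called MATE genes, genes at 0 in a group, the 10 most different between lines and the 5 most abundant called genes in each direction. Flavonol synthase 1, anthocyanidin reductase and flavonoid 3'-monooxygenase were added after their values were seen, to show the pathway. Alternatives were 2 other pseudocounts, filters, scalings, models, array weights, counts with voom, a replicate block and each library left out.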

Additional observations from a re-analysis of the deposited data

Results flagged for a closer look

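In 20 of the genes named above Fvmate51-2 and Fvmate51-1 were called on opposite sides of WT. With opposite calls in the same fit, limma's test of the difference between the lines is nearly bound to pass. It did so in each, which adds no separate support. The values below are log2 differences, Fvmate51-2 minus Fvmate51-1. Among defence genes the difference was 6.62 for thaumatin-like protein 1a (FvH4_6g16950), 6.14 for endochitinase EP3 (FvH4_4g10610) and 5.32 for Fra a 1.08 (FvH4_4g19040). For iron genes it was 5.40 for ferritin (FvH4_6g10770), 2.00 for ferritin-3 (FvH4_7g25100) and -3.90 for ORG2 (FvH4_2g11650). For enzymes of hormones and phenolics it was 3.42 for jasmonate-induced oxygenase 2 (FvH4_2g07081), 3.65 for P450 714C2 (FvH4_6g00880), 2.43 for flavonol synthase 1 (FvH4_2g07082) and 2.91 for the glutathione S-transferase FvH4_6g12680. For carriers it was 2.66 for the DETOXIFICATION 35 gene FvH4_7g30080, 1.93 for DETOXIFICATION 43 (FvH4_7g01040), 2.53 for polyol transporter 5 (FvH4_2g08400) and 1.11 for AVT1I (FvH4_6g48490). The remaining ones were ribosomal proteins L27 (FvH4_7g04670, 3.80) and L24 (FvH4_6g28801, 2.23), the GDSL lipase FvH4_6g35571 (1.71), sucrose synthase 2 (FvH4_2g26000, 1.34), protein phosphatase 2C 25 (FvH4_3g38990, -2.35) and the receptor GID1C (FvH4_6g04960, -1.09). The part of plant, harvest or batch in these differences was not tested, since the labels give none.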

How the results depend on the processing

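Over 19 alternative settings the number of genes called against WT ran from 3277 (genes with a mean of at least 5 FPKM) to 6508 (array weights), and 3337 to 4480 with 1 library left out. The share of called genes that were higher stayed between 46.1% and 51.7%. The count at 2-fold or more, 742, moved to 1125 with a pseudocount of 0.1, 1167 with 0.01, 1189 with voom on recovered fragments, which called 4956 genes in all, and 418 with a mean of at least 5 FPKM; with 1 library left out it was 718 to 765. The count between the lines, 4219, was 7121 with array weights and 3141 to 5168 with 1 library left out. The cause of these shifts was not tested. Of 2776 values of single genes under an alternative, 2754 kept direction and call, 11 lost the call, 11 gained it and none that was called changed direction. Of 1235 list medians 48 had the opposite sign, in 17 lists and over all genes tested, 7 of them without WT replicate 3; with all libraries none of these medians was over 0.17 in size. Among them, with a mean of at least 5 FPKM, were fatty acid synthesis at 0.027, heme peroxidases at 0.12 and pollen and anther markers at 0.13, and with voom all genes tested at -0.0065. Equal replicate numbers did not pair the samples (correlations of deviations -0.07, -0.13 and -0.28); a fit with the replicate number as a block called 3971 genes, 1943 higher and 2028 lower. Depth limits genes near 1 FPKM, and with 3 libraries a group small differences may be missed.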

Other observations

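Several further gene groups had members with large differences. The SNARE-interacting protein KEULE (FvH4_5g29992), which helps vesicles fuse at the cell plate, had 19.1, 19.5 and 19.8 FPKM in Fvmate51-2, against 3.38, 3.05 and 2.25 FPKM in WT (log2 difference 2.41 ± 0.11, adjusted p = 7.86e-08); of 122 vesicle traffic genes 12 were higher and 15 lower (5, 7 and 4 higher without Fvmate51-2 replicate 1, 2 or 3). The acyltransferase Pun1 (FvH4_4g17130), named after a pungency gene of pepper, had 6.3, 6.22 and 7.26 FPKM in Fvmate51-2 and 0.346, 0.541 and 0.586 FPKM in WT (log2 difference 2.35 ± 0.11, adjusted p = 8.95e-08), and of 5 BAHD acyltransferases tested 2 were higher and none lower (1 higher without Fvmate51-2 replicate 1 or 2 or WT replicate 2). The KEULE and Pun1 genes were well above WT in all 3 mutant libraries. Glutaredoxin-C9 (FvH4_3g08470), a thiol redox protein, had 1.32, 1.52 and 1.57 FPKM in Fvmate51-2, against 10.8, 11.4 and 14.4 FPKM in WT (log2 difference -2.41 ± 0.11, adjusted p = 9.27e-08), among antioxidant genes with 11 of 60 higher and 12 lower (14 and 12 without WT replicate 3). The ubiquitin ligase ATL2 (FvH4_4g18630), an early elicitor-response gene in Arabidopsis, had 3.54, 4.04 and 3.05 FPKM in Fvmate51-2, against 19.9, 23 and 28.3 FPKM in WT (log2 difference -2.44 ± 0.13, adjusted p = 3.56e-07). Ubiquitin ligases and F-box proteins had 92 of 485 higher and 58 lower (37 lower without Fvmate51-2 replicate 3). Both genes were lower in every mutant library. The calcium-responsive kinase CIPK11 (FvH4_3g40260) had 7.69, 7.42 and 6.73 FPKM in Fvmate51-2 and 19, 19.9 and 24.9 FPKM in WT (log2 difference -1.42 ± 0.11, adjusted p = 6.11e-06). Calcium and MAP kinase genes had 12 of 87 higher and 19 lower (8 and 23 without WT replicate 3, and 4 and 19 without Fvmate51-2 replicate 3).

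The remaining lists had these counts over their tested genes. Of 12 bZIP factors 5 were higher and 2 lower, and of 18 MADS-box and SBP factors 3 were higher and 4 lower. Fatty acid synthesis and desaturation genes had 12 of 42 higher and 10 lower. Heme peroxidases had 2 of 9 higher and 1 lower, and 1 of each without any single library other than WT replicate 3. Autophagy genes had 5 of 25 higher and 1 lower, and 2, 3 and 2 higher without Fvmate51-2 replicate 1, 2 or 3. Spliceosome genes had 10 of 100 higher and 5 lower, and 5, 5 and 6 higher without those libraries. Over all genes tested, too, fewer were higher without them, 1726, 1739 and 1637 against 2390. Pentatricopeptide repeat proteins, RNA-binding proteins of organelles, had 25 of 220 higher and 9 lower, 15 higher and 4 lower without WT replicate 3, and 14, 13 and 11 higher without Fvmate51-2 replicate 1, 2 or 3. Retrotransposon-related genes had 11 of 35 higher and 4 lower, and 7 higher and 3 lower without WT replicate 3.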
